A study of Mus musculus with 12 samples.

Results

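The genes described here were the erythroid transcription factors Gata1, Klf1, Tal1, Nfe2, Gfi1b, Zfpm1 and Lmo2 and the erythropoietin receptor gene Epor. They were found by matching the Ensembl identifiers of the count table to gene symbols of GRCm38, which gave 8 genes of 49315 in the table. RNASeq was performed on T cells that had been enriched from mouse spleen by magnetic removal of other cells, with 1 library from each of 12 mice. All were male and 12 weeks old when the infusion began. Wild-type (WT) mice and mice with a global deletion of miR-214 (miR-214-/-), which is missing from every cell of the body and not only from T cells, were infused for 14 days through implanted osmotic pumps with vehicle (sham) or with 490 ng/kg of angiotensin II (Ang II) a day, and each of the 4 groups held 3 mice. Ang II is the effector hormone of the renin-angiotensin system, and its infusion raises blood pressure. The study asked how Ang II and the loss of miR-214 alter splenic T cells, while the genes described here are best known from red-cell formation.

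Red cells are made from progenitors under a small set of transcription factors that act together on the same enhancers. Gata1 binds GATA sequences and recruits its cofactor Zfpm1, also called Friend of GATA1, while Tal1 joins it in a complex that is held together by the adaptor Lmo2. Klf1 binds CACC sequences in globin and red-cell membrane genes, Nfe2 is the blood-specific subunit of NF-E2, and Gfi1b is a repressor that is needed for red cells and platelets. Epor is the receptor for erythropoietin, which keeps red-cell precursors alive through Jak2 and Stat5. In mice the spleen remains a site of red-cell formation in adult life. Several of these factors also serve megakaryocytes, mast cells, basophils and eosinophils, and Lmo2 and Tal1 serve early progenitors.

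All 8 genes had reads in all 12 libraries, with between 56 and 5190 counts, and all passed the filter on low counts in every comparison. Total counts per library lay between 21126874 and 29605988. In the GENCODE annotation of GRCm38 Gata1 lies on chrX:7959260-7978071, Klf1 on chr8:84901928-84905291, Tal1 on chr4:115056426-115071755, Nfe2 on chr15:103248212-103258403, Gfi1b on chr2:28609450-28621982, Zfpm1 on chr8:122282141-122337251, Lmo2 on chr2:103957986-103981878 and Epor on chr9:21958897-21963506. None of their exons shared a base with an exon of another gene. Zfpm1 lies inside the span of the gene model Gm20388 on the same strand, and Lmo2 overlaps the span of 4931422A03Rik on the opposite strand. The T cell marker Cd3e, a chain of the T cell receptor complex, was between 284 and 460 CPM (counts per 1000000 after TMM scaling) in all libraries. The deletion itself could not be checked, because poly(A) libraries do not capture mature microRNA. Mir214 had 0 counts in all 12 libraries, WT included, where a 0 allows up to 3 counts, and its host transcript Dnm3os had 1 count in all.

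A pair of libraries stood apart in genes of other blood cells. The summed level of the 4 adult globin genes was 4756 CPM in WT Ang II replicate 1 and 4041 CPM in miR-214-/- Ang II replicate 2, while the other 10 libraries lay between 235 and 1264 CPM. The same libraries had the highest sums of 10 neutrophil genes, 3377 and 3049 CPM, against 203 to 1622 CPM elsewhere. The tests of the 8 genes and of the gene lists were repeated without these libraries. Changes in the counts of calls and the largest shifts in list medians are given beside the results.

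The promoters of the 3 genes with the largest fold changes in WT, Epor, Klf1 and Gfi1b, are shown with that of Zfpm1, the gene with the smallest. Each stretch runs from 250 bases before to 50 bases after the start site in RefSeq (GRCm38.p6), and capitals mark the letters recognised by GATA factors (AGATAA, or the same with T as the first base, with G as the last base, or with both) and those of a CACC box (CCNCNCCC), searched on both strands.
Epor, chr9:21963527-21963826, minus strand: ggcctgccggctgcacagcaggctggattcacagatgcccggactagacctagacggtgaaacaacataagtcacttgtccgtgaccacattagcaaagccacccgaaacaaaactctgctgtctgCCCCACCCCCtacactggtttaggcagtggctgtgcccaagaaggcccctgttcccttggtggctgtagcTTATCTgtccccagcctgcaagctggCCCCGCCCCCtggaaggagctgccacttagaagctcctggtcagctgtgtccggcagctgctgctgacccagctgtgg
Klf1, chr8:84901732-84902031, plus strand: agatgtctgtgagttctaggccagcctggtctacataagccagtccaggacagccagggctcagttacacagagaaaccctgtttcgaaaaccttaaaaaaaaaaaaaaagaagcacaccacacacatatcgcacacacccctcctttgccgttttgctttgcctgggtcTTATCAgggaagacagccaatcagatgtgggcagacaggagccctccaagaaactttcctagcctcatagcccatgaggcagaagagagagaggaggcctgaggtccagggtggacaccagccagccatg
Gfi1b, chr2:28621933-28622232, minus strand: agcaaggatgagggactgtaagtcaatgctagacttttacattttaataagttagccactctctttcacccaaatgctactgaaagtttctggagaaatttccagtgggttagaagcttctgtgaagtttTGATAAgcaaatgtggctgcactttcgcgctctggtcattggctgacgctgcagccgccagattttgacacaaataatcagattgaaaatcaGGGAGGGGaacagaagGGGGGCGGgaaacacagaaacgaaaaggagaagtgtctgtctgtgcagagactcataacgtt
Zfpm1, chr8:122281891-122282190, plus strand: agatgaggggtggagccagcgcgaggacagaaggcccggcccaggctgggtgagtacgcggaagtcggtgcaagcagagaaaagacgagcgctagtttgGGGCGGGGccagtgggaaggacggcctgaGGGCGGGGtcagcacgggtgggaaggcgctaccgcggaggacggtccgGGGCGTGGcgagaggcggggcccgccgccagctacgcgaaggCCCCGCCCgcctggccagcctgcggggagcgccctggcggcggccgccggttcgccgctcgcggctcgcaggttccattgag
The GATA letters stand once in Epor, at position -54 from the start site, once in Klf1, at position -80, and once in Gfi1b, at position -120, and they are not in the window of Zfpm1. CACC letters are found at 4 overlapping or separate places in Epor, at 4 in Zfpm1 and at 2 in Gfi1b, and not in the window of Klf1. Of the other members, Gata1 held 0 GATA and 3 CACC matches, the upstream start site of Tal1 held 1 GATA match and its downstream start site held 4 CACC matches. Among 32851 promoters of the same length 29.8% hold the GATA letters and 49.5% the CACC letters, so neither is rare. The NF-E2 letters TGAGTCA were in none of these promoters and in 5.20% of all promoters. E-box letters (CANNTG), which bind Tal1 with its partners, stand 5 times in Epor, 2 times in Gfi1b and 1 time each in Klf1, Gata1 and the upstream start site of Tal1. They are not in the windows of Zfpm1 and the downstream start site of Tal1, and 72.3% of promoters hold them.

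In WT mice 7 of the 8 genes were higher after Ang II than after sham infusion, by 4.34-fold to 8.65-fold, and Zfpm1 did not pass the test. Calls needed an adjusted p under 0.05 in edgeR's quasi-likelihood test together with an absolute log2 fold change over 1, and 7.01% of the 16012 genes tested were called higher in this comparison. DESeq2 called the same number of members, 7, beside 7.98% of its genes. The levels of 7 members did not overlap between WT sham and WT Ang II libraries, which held for 19.1% of all genes in that direction. The median log2 fold change was 2.52 over the 8 genes and -0.02 over all genes.

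**Figure D1:**
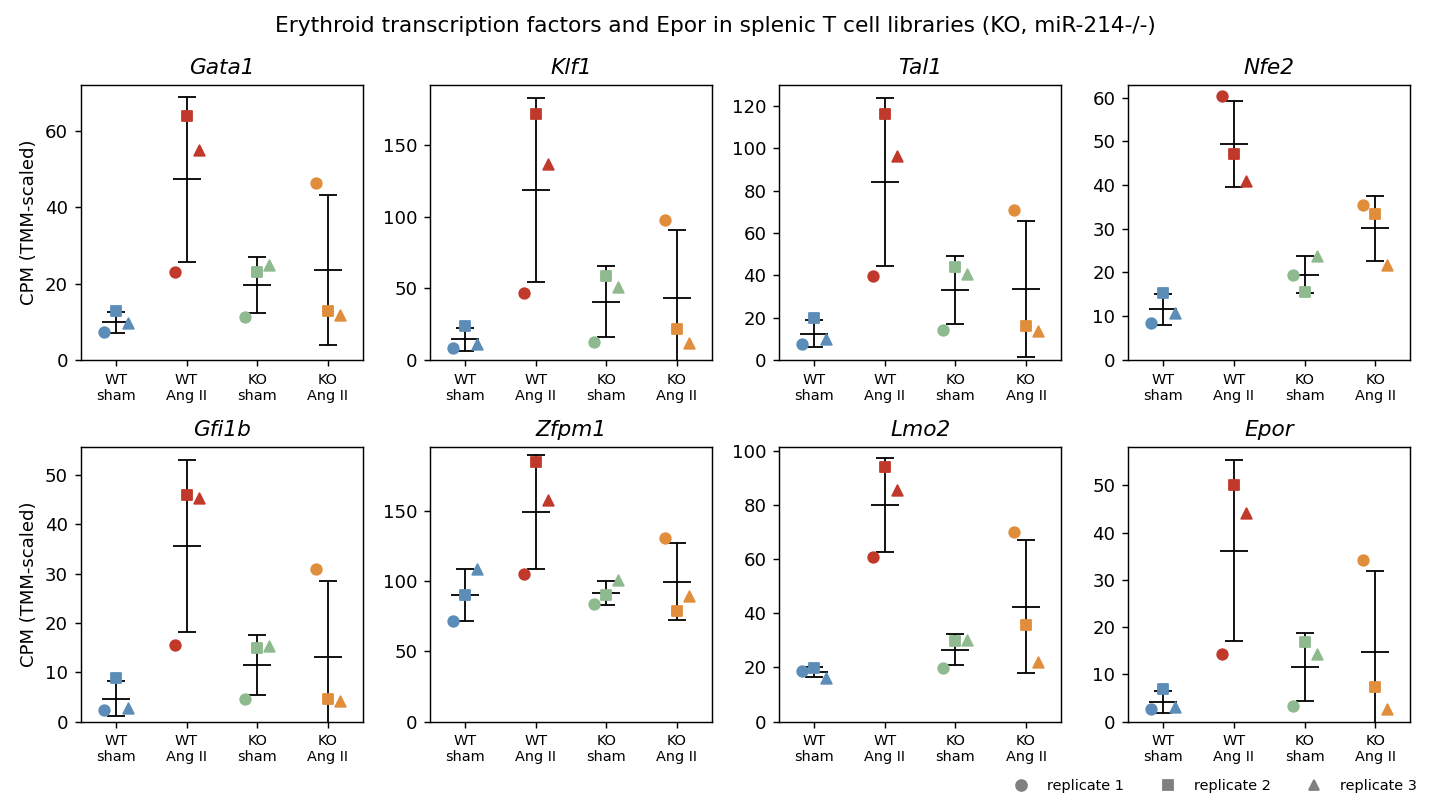
Level of each of the 8 genes in CPM (TMM-scaled, linear axis from 0) in every library of the 4 groups, where KO stands for miR-214-/-, the marker shape gives the replicate number, the horizontal bar the mean and the error bar the SD (n = 3), cut off at 0. All 3 WT Ang II libraries lie above the 3 WT sham libraries for every gene but Zfpm1, and among the miR-214-/- Ang II libraries replicate 1 alone is high for Gata1, Klf1, Tal1, Gfi1b and Epor.

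Gata1, the factor that red-cell and megakaryocyte precursors cannot mature without, was at 7.33, 12.8 and 9.56 CPM in the WT sham libraries 1 to 3 and at 22.9, 63.9 and 55.0 CPM in the WT Ang II libraries. The groups did not overlap, and WT Ang II replicate 1 was the lowest of its group. The log2 fold change was 2.27 ± 0.39 (SE, adjusted p = 0.0118). Its cofactor Zfpm1 was at 71.4, 90.2 and 108 CPM in WT sham and at 105, 185 and 157 CPM in WT Ang II. Here the lowest Ang II library fell inside the sham range, and the log2 fold change of 0.75 ± 0.22 (adjusted p = 0.0561) was not called. DESeq2 gave Zfpm1 an adjusted p of 0.00252 with a log2 fold change of 0.76, which is also under the fold threshold.

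Tal1, the basic helix-loop-helix factor of the complex, rose from 7.42, 19.8 and 10.1 CPM to 39.8, 116 and 96.4 CPM, a log2 fold change of 2.77 ± 0.49 (adjusted p = 0.0129). Lmo2, the adaptor of the same complex, rose from 18.7, 20.0 and 16.2 CPM to 60.7, 94.2 and 85.5 CPM. Its log2 fold change of 2.15 ± 0.17 was smaller than that of Tal1, but its replicates were close to each other and its adjusted p was the lowest of the 8 (0.00116). Neither gene overlapped between the groups.

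Klf1 had the highest level per length of the 8 genes in WT Ang II and rose from 8.29, 23.7 and 10.98 CPM to 47.1, 172 and 137 CPM. This was a log2 fold change of 3.06 ± 0.57 (adjusted p = 0.0149), and the lowest Ang II library was still above the highest sham library. Gfi1b rose from 2.44, 8.81 and 2.78 CPM to 15.4, 46.0 and 45.2 CPM, a log2 fold change of 2.94 ± 0.62, and had the highest adjusted p among the called genes (0.0219). Nfe2 rose from 8.51, 15.3 and 10.8 CPM to 60.3, 47.0 and 40.9 CPM, a log2 fold change of 2.12 ± 0.24 (adjusted p = 0.00353). Nfe2 was the one member whose highest level was in WT Ang II replicate 1, the library in which the other 7 genes were lowest of their group. Epor, the only surface receptor among the 8, rose from 2.66, 6.90 and 3.05 CPM to 14.3, 50.1 and 44.1 CPM. Its log2 fold change of 3.11 ± 0.56 (adjusted p = 0.0137) was the largest of the members.

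The fold changes kept their direction when any of the 6 WT libraries was left out, but 5 of the calls did not. Without WT sham replicate 1 the called members were 2, Nfe2 and Lmo2, and the adjusted p of Gata1, Klf1, Tal1, Gfi1b and Epor lay between 0.0531 and 0.0762. Without WT sham replicate 3 the count was again 2, and without WT Ang II replicate 3 it was 5, with Klf1 (adjusted p = 0.0510) and Gfi1b (0.0717) lost. Without WT Ang II replicate 1, the globin-rich library, all 7 remained called.

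In miR-214-/- mice none of the 8 genes was called between Ang II and sham. All log2 fold changes were positive and small, from 0.04 for Tal1 to 0.69 for Lmo2, with adjusted p from 0.372 to 0.988. The call share was 0% among 15937 genes in edgeR, although 1939 genes had an unadjusted p under 0.05 and DESeq2 called 51. At an unadjusted p under 0.05 the members counted 1, Nfe2, beside 5.82% of genes in that direction, and DESeq2 called 0 members.

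Only 1 of the 3 miR-214-/- Ang II libraries had high levels of most of these genes. Gata1 was at 11.3, 22.9 and 24.8 CPM in sham and at 46.3, 12.8 and 11.9 CPM after Ang II, so replicate 1 was above and replicates 2 and 3 were among the lower sham values. Tal1 was at 14.3, 43.9 and 40.8 CPM in sham and at 70.8, 16.2 and 13.7 CPM in Ang II. Klf1 showed the widest scatter in absolute terms, with 12.3, 58.6 and 51.2 CPM in sham and 97.6, 21.4 and 11.6 CPM in Ang II. The SD over the Ang II libraries, 47.1 CPM, was larger than their mean of 43.5 CPM.

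Gfi1b was at 4.49, 14.8 and 15.2 CPM in miR-214-/- sham and at 30.9, 4.52 and 4.10 CPM in Ang II. Epor was at 3.28, 16.8 and 14.3 CPM and at 34.2, 7.31 and 2.66 CPM, a 12.9-fold range among replicates of the Ang II group. These 5 genes followed the same order, with sham replicate 1 low beside replicates 2 and 3 and Ang II replicate 1 high beside replicates 2 and 3. Lmo2 followed it in part, at 19.9, 29.7 and 30.03 CPM in sham and 69.8, 35.6 and 21.96 CPM in Ang II. Nfe2 did not, at 19.3, 15.4 and 23.7 CPM in sham and 35.5, 33.4 and 21.7 CPM in Ang II, where its log2 fold change was 0.64 ± 0.23 (adjusted p = 0.372). Zfpm1 stayed within 83.5 to 101 CPM in sham and was at 131, 78.8 and 89.3 CPM in Ang II.

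The small positive changes in miR-214-/- rested on single libraries. Without miR-214-/- Ang II replicate 1 the log2 fold change turned negative for 6 genes, with -0.67 for Gata1, -1.30 for Klf1, -1.14 for Tal1, -1.41 for Gfi1b, -0.12 for Zfpm1 and -1.19 for Epor, and stayed positive for Nfe2 (0.49) and Lmo2 (0.12). Without miR-214-/- sham replicate 1 it turned negative for Gata1, Klf1, Tal1, Gfi1b and Epor. No member was called in any of the 6 fits with a library left out.

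**Figure D2:**
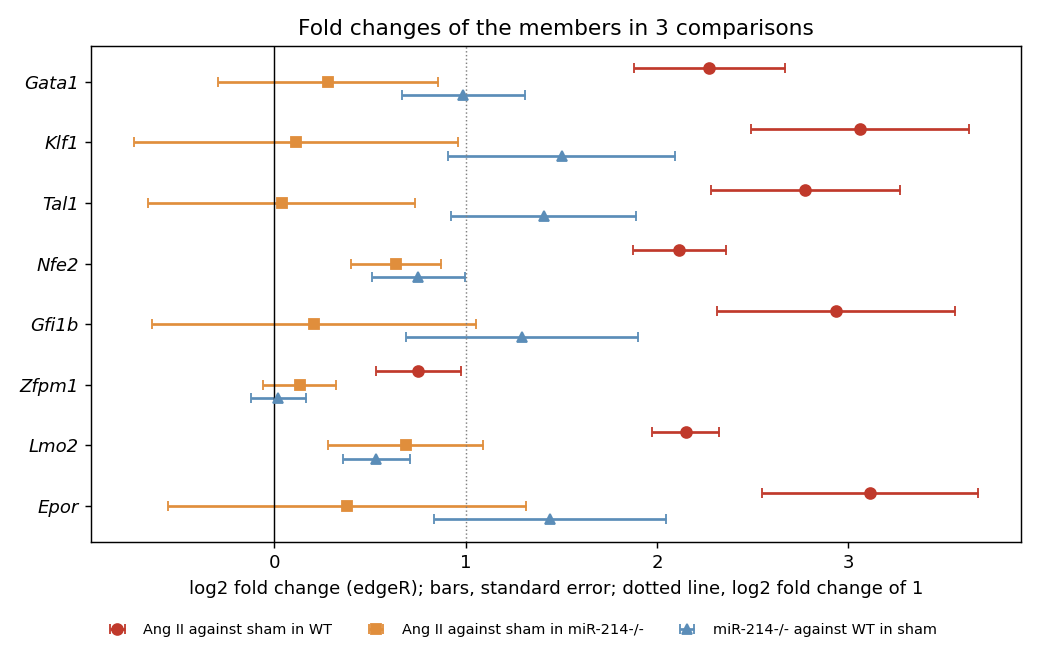
Log2 fold change (edgeR) of the 8 genes for Ang II against sham in WT, Ang II against sham in miR-214-/- and miR-214-/- against WT in sham, with bars of 1 standard error, a solid line at 0 and a dotted line at 1. The WT values lie at 2.12 or above except for Zfpm1 at 0.75, while the miR-214-/- values lie between 0.04 and 0.69.

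In sham-infused mice, all 8 genes had higher mean levels in miR-214-/- than in WT T cell libraries, but none was called. The log2 fold change of miR-214-/- against WT in sham was largest for Klf1 (1.502 ± 0.59), Epor (1.44 ± 0.61) and Tal1 (1.41 ± 0.48), and it was 0.02 ± 0.14 for Zfpm1. The adjusted p lay between 0.701 and 0.988, and edgeR called 0.0189% of 15913 genes. At an unadjusted p under 0.05 there were 6 members, all but Gfi1b and Zfpm1, where 4.26% of all genes were higher at that level. DESeq2 called 0 members and gave Gata1 an adjusted p of 0.0488 with a log2 fold change of 0.99, just under the fold threshold. Nfe2 was the one gene whose miR-214-/- sham libraries all lay above the WT sham libraries, as did 5.39% of genes.

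Under Ang II the order was the opposite, and again no member was called. All 8 log2 fold changes of miR-214-/- against WT were negative, from -0.58 ± 0.26 for Zfpm1 to -1.43 ± 0.83 for Klf1, with adjusted p from 0.569 to 0.624. The call share was 0% of 16215 genes in edgeR, although 1388 genes passed an unadjusted p of 0.05 and DESeq2 called 21. Of the members 1, Nfe2, had an unadjusted p under 0.05, beside 4.16% of genes in that direction, and DESeq2 called 0. Nfe2 was also the one member with every miR-214-/- Ang II library below every WT Ang II library, at a highest level of 35.5 CPM against a lowest of 40.9 CPM, which held for 5.94% of genes. With both globin-rich libraries left out, an alternative chosen after seeing the data, the 8 changes remained negative, from -0.60 for Nfe2 to -1.47 for Klf1, and 0 were called.

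Whether the response to Ang II differed between the genotypes was tested by the interaction over all 12 libraries. All 8 interaction terms were negative, meaning a smaller rise in miR-214-/- than in WT, and edgeR called none at an adjusted p under 0.05, where it called 0.00596% of 16770 genes. The largest terms on the log2 scale were -2.95 ± 1.14 for Klf1, -2.73 ± 0.95 for Tal1, -2.73 ± 1.22 for Epor and -2.73 ± 1.17 for Gfi1b. Their adjusted p lay between 0.255 and 0.330. Gata1 had -1.99 ± 0.77 (adjusted p = 0.283), Nfe2 -1.47 ± 0.36 (0.213), Lmo2 -1.45 ± 0.48 (0.244) and Zfpm1 -0.61 ± 0.33 (0.395).

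Of the 8 terms 7 had an unadjusted p under 0.05, the exception being Zfpm1 (0.0893), and 8.26% of all genes were lower at that level. DESeq2 called 2 members, Nfe2 (adjusted p = 0.00566) and Lmo2 (adjusted p = 0.0395), gave no adjusted p for Gfi1b, and called 2.53% of its genes in that direction. When miR-214-/- Ang II replicate 1 was left out, 7 members were called in edgeR, all but Zfpm1, with adjusted p between 0.0163 and 0.0436 and a term of -4.34 for Klf1. In that fit 919 genes were called in all, against 1 with every library. With both globin-rich libraries left out, an alternative chosen after seeing the data, 0 members were called and the terms lay between -0.66 for Zfpm1 and -2.997 for Klf1.

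**Figure D3:**
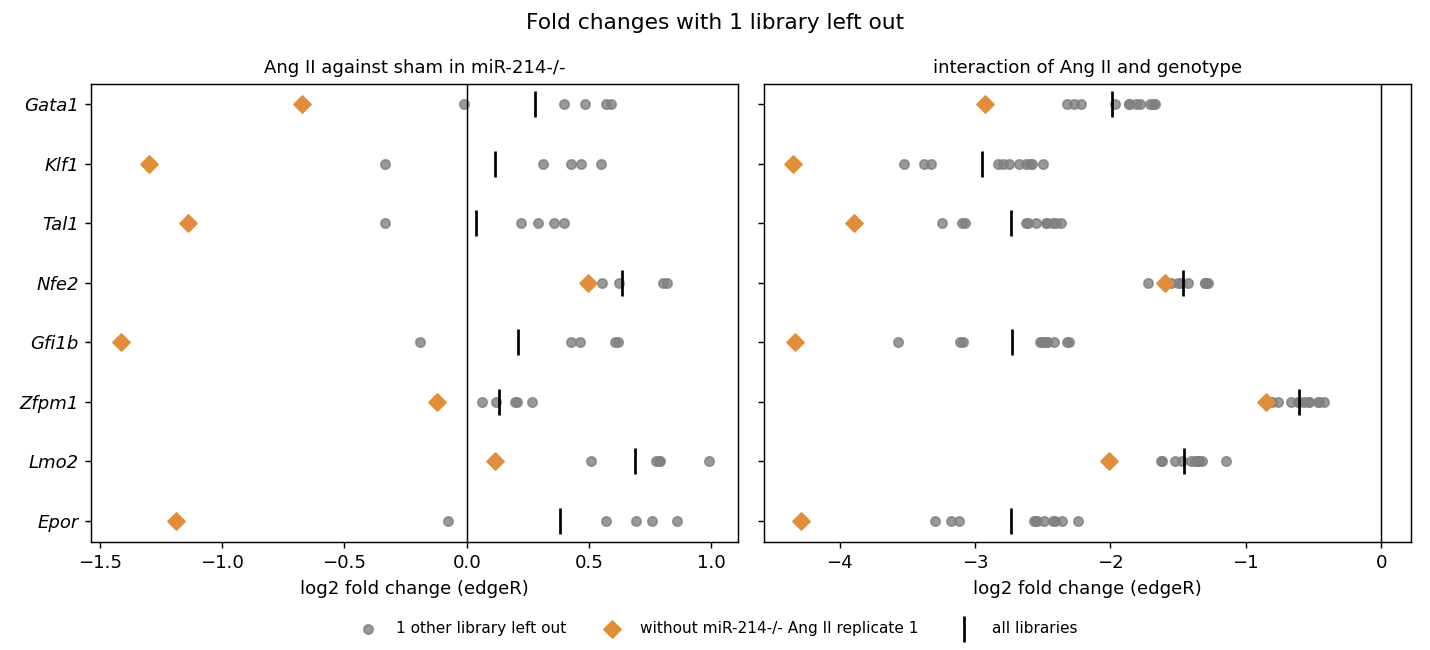
Log2 fold change (edgeR) of the 8 genes with each library left out in turn, for Ang II against sham in miR-214-/- (left, 6 fits) and for the difference between genotypes in the response to Ang II, the interaction (right, 12 fits), with a black stroke for the fit on all libraries and an orange diamond for the fit without miR-214-/- Ang II replicate 1. Leaving out that library moved Klf1 from 0.11 to -1.30 in miR-214-/- and from -2.95 to -4.34 for the interaction, while Nfe2 moved from -1.47 to -1.60.

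To compare genes with each other, CPM was divided by the merged exon length of each gene in kilobases. In WT sham Zfpm1 was the highest, at 25.7 ± 5.27 CPM per kb (SD, n = 3), and did not overlap the next gene. Klf1 (9.37 ± 5.39) and Lmo2 (8.45 ± 0.88) followed, and could not be told apart by their ranges. Gata1 (4.06 ± 1.13), Nfe2 (3.86 ± 1.15), Tal1 (2.83 ± 1.48), Gfi1b (2.56 ± 1.96) and Epor (2.11 ± 1.18) overlapped each neighbour in this order.

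In WT Ang II Klf1 led at 77.5 ± 42.1 CPM per kb, above Zfpm1 (42.6 ± 11.6) and Lmo2 (37.0 ± 8.02), though all 3 ranges overlapped. Gfi1b, Gata1, Tal1, Epor and Nfe2 then lay close together between 16.5 and 19.4 CPM per kb. In miR-214-/- sham Klf1 (26.6 ± 16.2) and Zfpm1 (26.1 ± 2.46) overlapped at the top and Epor was lowest at 5.76 ± 3.62 CPM per kb. In miR-214-/- Ang II Zfpm1 (28.5 ± 7.86) and Klf1 (28.4 ± 30.8) were level, and every neighbour in the order overlapped. The highest mean was 12.1 times the lowest in WT sham and 4.69 times the lowest in WT Ang II.

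Across the 12 libraries Gata1, Klf1, Tal1, Gfi1b and Epor varied almost as a single unit. The Pearson correlation of their log2 CPM lay between 0.972 and 0.995 for every pair, and between 0.947 and 0.992 after the group means were taken out. These values describe 12 points that share their libraries, and no test is attached to them. Lmo2 correlated with the 5 genes at 0.89 to 0.92 and Zfpm1 at 0.81 to 0.89. Nfe2 was the least alike, at 0.71 to 0.75 with the 5 genes and 0.23 to 0.34 after the group means were taken out.

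For 6 of the 7 other genes the ratio to Gata1 varied less than the gene itself, and for Zfpm1 it varied more. The log2 ratio of Tal1 to Gata1 (CPM) had an SD of 0.32 over the 12 libraries, where the log2 level of Tal1 had an SD of 1.31. For Klf1 the ratio had an SD of 0.53 against 1.51 for its level, for Gfi1b 0.54 against 1.51, for Epor 0.62 against 1.58 and for Lmo2 0.40 against 0.92. For Nfe2 the ratio varied by 0.70 against 0.87 for the level, and for Zfpm1 by 0.70 against 0.41. The ratio of Klf1 to Gata1 on the log2 scale was 0.42 ± 0.40 in WT sham and 1.26 ± 0.20 in WT Ang II (SD, n = 3). In miR-214-/- the same ratio was 0.84 ± 0.64 in sham and 0.59 ± 0.57 in Ang II.

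The genes whose pattern over the libraries was most like each member were taken from 12290 genes with a mean log2 CPM above 1. For Klf1 they were Slc38a5, an amino acid transporter, Ermap, an erythroid membrane protein, and Ache, the acetylcholinesterase gene, with r of 0.998, 0.997 and 0.997. Those of Epor were Abcg4, Ermap and Aqp1, the water channel of the red-cell membrane, with r of 0.995, 0.995 and 0.993. Tal1 was most like Steap3, a ferrireductase of red-cell precursors, Slc38a5 and Col5a1, and Gata1 was most like Col5a1, a fibrillar collagen gene, Hmgb3 and Samd14. For Gfi1b they were Ces2g, Mfsd2b, a sphingosine-1-phosphate exporter of red cells and platelets, and Abcb4 (r = 0.99 for each).

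Of the other 3 members, Zfpm1 was most like Acsl5, Noc4l and E2f4 (r from 0.97 to 0.98), and Lmo2 was most like Rnaseh2b, Cep128 and Tceal8 (r from 0.98 to 0.99). Nfe2 was most like Ogfrl1, Emilin2 and Ckap4, each with r of 0.96 over the 12 libraries and between 0.67 and 0.73 after the group means were taken out.

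Genes that these factors are known to drive in red cells rose with them in WT. Of 24 red-cell target genes tested, 18 were called higher and 0 lower in WT Ang II, with a median log2 fold change of 3.52. The most changed were Cldn13 (4.38 ± 0.68, SE) and Rhag, a Rh-complex membrane protein (4.33 ± 0.52). The mean of Rhag was 2.91 ± 1.24 CPM in the sham group and 58.2 ± 29.7 CPM after Ang II (SD, n = 3). In miR-214-/- 0 of the 24 were called and their median was 0.59, with Rhag at 14.0 ± 11.3 CPM in sham and 19.4 ± 19.8 CPM in Ang II. At an unadjusted p under 0.05 there were 5 of the 24, beside 12.2% of all genes, and DESeq2 called 0. These 5 were the globin genes Hba-a1, Hba-a2, Hbb-bs and Hbb-bt, with log2 fold changes of 2.48, 3.00, 2.70 and 2.48, and Alas2, the first enzyme of haem synthesis in red cells, with 2.61 (adjusted p from 0.361 to 0.388). Without miR-214-/- Ang II replicate 2, the globin-rich library, these values were 0.38, 0.33, 0.52, 0.47 and 0.59, 2 of the 24 had an unadjusted p under 0.05 and the median was 0.55.

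The 6 red-cell genes not called in WT were the 4 globin genes, Alas2 and Car1, a carbonic anhydrase, with log2 fold changes from 2.15 to 2.70 and adjusted p from 0.0502 to 0.168. The size of the globin and Alas2 changes rested on WT Ang II replicate 1. Without it the log2 fold change was 1.39 for Hba-a1 (adjusted p = 0.0474, called), 0.19 for Hba-a2, 1.13 for Hbb-bs, 1.48 for Hbb-bt and 1.34 for Alas2, where all libraries gave 2.65, 2.27, 2.49, 2.698 and 2.57. Car1 was at 2.52 and called (adjusted p = 0.0172), and the 18 genes called before remained among the 20 called. Globins did not follow the factors from library to library. WT Ang II replicate 3, with Klf1 at 137 CPM, had summed globins of 450.2 CPM, while miR-214-/- Ang II replicate 2, with Klf1 at 21.4 CPM, had 4041 CPM. miR-214-/- Ang II replicate 1, with Klf1 at 97.6 CPM, had 255 CPM. The other red-cell target genes summed to 2936, 1353 and 2132 CPM in these 3 libraries. Their order over all libraries was not that of Klf1 either, since WT Ang II replicate 1, with Klf1 at 47.1 CPM, had 2204 CPM, and miR-214-/- sham replicate 2, with Klf1 at 58.6 CPM, had 1308 CPM. Globin reads that map to near-identical copies were not counted, so the globin levels are uncertain.

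**Figure D4:**
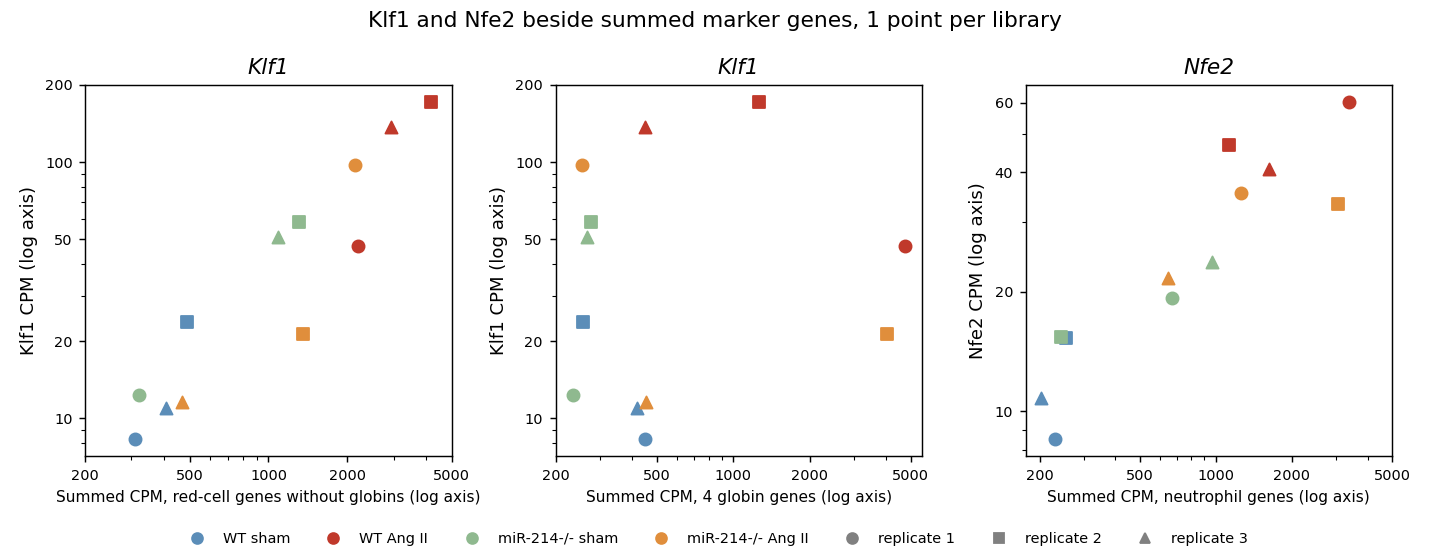
Each point is 1 library (colour, group; shape, replicate number), with Klf1 in CPM against the summed CPM of red-cell target genes other than globins (left) and of the 4 globin genes (middle), and Nfe2 against the summed CPM of 10 neutrophil genes (right), all on log axes. The globin-rich libraries WT Ang II replicate 1 and miR-214-/- Ang II replicate 2 lie far right in the middle panel with Klf1 at 47.1 and 21.4 CPM, and the same libraries lie far right in the neutrophil panel.

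Most partners of these factors, which are broadly expressed, moved little. Of 14 partner genes 2 were called in WT Ang II and the median log2 fold change was 0.01. The called genes were Lyl1, a close relative of Tal1 (1.53 ± 0.20, adjusted p = 0.00520), and Cbfa2t3, a corepressor of the Tal1 complex (1.13 ± 0.18, adjusted p = 0.00944). Without WT Ang II replicate 1 Cbfa2t3 was at 0.98, under the fold threshold. Ldb1, the dimerising partner of Lmo2, had a log2 fold change of -0.23 (adjusted p = 0.109). In miR-214-/- 0 of 14 were called, with Lyl1 at 0.80 and Cbfa2t3 at 0.23, and DESeq2 called 0. An unadjusted p under 0.05 was found for 2 of the 14, beside 12.2% of all genes.

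Of 16 other transcription factors of blood cells 5 were called higher in WT Ang II, and the median was 0.03. Sox6, a factor of red-cell maturation, rose by the most (4.19 ± 0.46, adjusted p = 0.00307), from 1.54 ± 0.96 to 27.5 ± 9.33 CPM (SD, n = 3). Spi1, the myeloid factor PU.1, had 1.59 ± 0.36, Bcl11a 1.51 ± 0.26, Gata2, the GATA factor of progenitors and mast cells, 1.21 ± 0.24 and Myb 1.002 ± 0.23, with adjusted p from 0.0115 to 0.0273 for these 4. Gata3, the GATA factor of T cells, had a log2 fold change of -0.44 ± 0.11 (adjusted p = 0.0312) and missed the fold threshold. In miR-214-/- 0 of the 16 were called, with Sox6 at 0.78, and DESeq2 called 0. An unadjusted p under 0.05 was found for 3 of the 16, beside 12.2% of all genes. Without miR-214-/- Ang II replicate 2 this count was 2.

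Downstream of the erythropoietin receptor, 2 of 15 genes were called in WT Ang II and the median was 0.14. These were Tfr2, the second transferrin receptor that associates with Epor (2.65 ± 0.58, adjusted p = 0.0245), and Erfe, the hormone erythroferrone of red-cell precursors (2.43 ± 0.50, adjusted p = 0.0197). Jak2, the kinase bound to the receptor, had a log2 fold change of 0.14 (adjusted p = 0.143) and Stat5a one of 0.11 (0.289). Stat5b had -0.27 (adjusted p = 0.0232) and Pim1, a Stat5 target, -0.37 (0.0380), both short of the fold threshold. The Stat5 targets Cish (0.45, adjusted p = 0.146), Socs2 (0.35, 0.205) and Bcl2l1 (0.49, 0.345) were not called. In miR-214-/- 0 of 15 were called, 6 had an unadjusted p under 0.05, beside 12.2% of all genes, and DESeq2 called 0. Without miR-214-/- Ang II replicate 2, the globin-rich library, 1 of the 15 had an unadjusted p under 0.05.

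Some markers of other blood cells that use these factors rose in WT Ang II as well. In WT 5 of 12 megakaryocyte genes were called higher, 6 of 10 basophil and mast cell genes, 3 of 5 eosinophil genes and 5 of 7 genes of early progenitors, with median log2 fold changes of 1.16, 1.60, 2.08 and 1.35. The summed level of the basophil and mast cell genes was 52.3 to 109 CPM in the sham libraries of WT and 213.9 to 443 CPM in those with Ang II, led by the basophil proteases Prss34 (log2 fold change 2.70 ± 0.42) and Mcpt8 (2.53 ± 0.39) and by Hdc (1.80 ± 0.30). Not called in this list were Cd200r3 (0.67) and the mast cell proteases Mcpt4 (-0.15), Tpsb2 (0.50) and Cma1 (-0.61). The log2 fold changes of these mast cell proteases in miR-214-/- were -1.36, -1.33 and -0.58, also not called. The eosinophil genes summed to 16.1 to 68.9 CPM and 98.6 to 410 CPM, led by the granule proteins Prg2 (3.38 ± 0.85) and Epx (3.06 ± 0.69) and by Siglecf (2.08 ± 0.44). These sums did not overlap between sham and Ang II. The eosinophil genes Ccr3 (0.95) and Il5ra (0.74) were not called, and were at -0.07 and 0.18 without WT Ang II replicate 1. The megakaryocyte genes summed to 29.9 to 54.3 CPM and 74.0 to 96.6 CPM, with Treml1 (2.03 ± 0.40) and Gp9 (1.32 ± 0.33) among the genes called. The progenitor genes summed to 30.1 to 55.8 CPM and 118 to 129 CPM, led by Cd34 (2.19 ± 0.35), Mecom (1.94 ± 0.36) and Kit (1.67 ± 0.32). Without WT Ang II replicate 1 the counts of these 4 lists were 8, 6, 3 and 4. In miR-214-/- edgeR called 0 genes of these 4 lists and DESeq2 0. In the order megakaryocytes, basophils and mast cells, eosinophils and progenitors, 5, 1, 1 and 2 genes had an unadjusted p under 0.05. The share among all genes was 12.2%. Without miR-214-/- Ang II replicate 2 these counts were 2, 1, 0 and 2. Over the genes tested in both fits the medians were 0.40, 0.13, 1.62 and 0.51 with all libraries. Without that library they were 0.32, 0.27, 1.32 and 0.67. The part of these blood cells in the levels of the 8 genes was not tested. In bulk libraries more cells of a type and more RNA per cell cannot be told apart.

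All 10 neutrophil genes were called higher in WT Ang II (median 3.18), with Mmp8 at 3.71 ± 0.39, Ltf at 3.34 ± 0.60 and Ngp at 3.32 ± 0.60, and 1 of 10 macrophage and monocyte genes, Lyz2 (2.05 ± 0.43). The neutrophil sum lay between 203 and 255 CPM in WT sham libraries and between 1133 and 3377 CPM with Ang II. Without WT Ang II replicate 1 all 10 were still called, with a median of 2.72 and Mmp8 at 3.23, Ltf at 2.33 and Ngp at 2.32, and Lyz2 was at 1.37. The median of the macrophage and monocyte genes was 0.78 with all WT libraries and -0.19 without that library. Of the endothelial genes 2 of 5 tested were called, Egfl7 (1.73 ± 0.36) and Tie1 (1.43 ± 0.32), while Tek (1.68 ± 0.50, adjusted p = 0.0581) and the defining marker Cdh5 (1.21 ± 0.57, adjusted p = 0.178) were not. These 4 genes were low, with a highest value of 5.10 CPM in any library, and Cdh5 had a log2 fold change of 0.40 without WT Ang II replicate 1. The other endothelial gene tested, Kdr, was not called. Its log2 fold change was 0.07 with all WT libraries and -0.12 without that replicate. Of 7 B cell genes 0 were called, with 0 at an unadjusted p under 0.05 and 0 by DESeq2, and a median of -0.32. The most abundant, Cd79a and Cd79b, had log2 fold changes of -0.15 and -0.22 (adjusted p of 0.864 and 0.740). For Ang II against sham in miR-214-/-, edgeR called 0 neutrophil, 0 macrophage and monocyte, and 0 B cell genes. The medians of these lists were 1.37, -0.14 and 1.66 with all libraries. They were 0.34, -0.36 and -0.08 without miR-214-/- Ang II replicate 2, the globin-rich library. The neutrophil genes were split in that fit, where 4 of 10 had an unadjusted p under 0.05 and 0 were called. Elane, Mpo, Prtn3 and Ctsg were at 1.39, 1.31, 1.54 and 1.28, where all libraries gave 1.09, 0.99, 1.34 and 1.04. Ltf, Camp, Ngp, S100a8, S100a9 and Mmp8 were at -0.01, 0.30, 0.20, -0.21, -0.13 and 0.37.

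The 14 T cell genes went the other way in WT. In all 14 the WT Ang II libraries lay below the WT sham libraries with no overlap, as did 22% of all genes tested. At an adjusted p under 0.05 alone 12 were lower, beside 7.06% of all genes. The log2 fold changes of the 14 were from -0.62 to -0.35, so none met the fold threshold. The most abundant, Tcf7 and Lck, had log2 fold changes of -0.50 ± 0.08 and -0.55 ± 0.11. DESeq2 called 0. Their sum lay between 7020 and 7887 CPM in WT sham libraries, and Ang II libraries of WT had 4755 to 5430 CPM. The miR-214-/- sham libraries had 6565 to 7544 CPM. After Ang II, the sum in miR-214-/- was 5415 CPM in replicate 1 against 7440 and 7238 CPM in replicates 2 and 3. The libraries with the highest sums of the 8 members, the 3 of WT Ang II and miR-214-/- Ang II replicate 1, were thus those with the lowest T cell sums. The part of T cell purity in the values was not tested.

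The 8 transcripts were searched for the site of the deleted microRNA. The mature strand mmu-miR-214-3p (RefSeq, chr1:162223438-162223459, plus strand, GRCm38.p6) is shown with its seed, bases 2 to 8, in capitals.
mmu-miR-214-3p: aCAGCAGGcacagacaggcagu
The matching 7 letters CCTGCTG were in the longest annotated 3′ UTR of 0 of the 8 genes, and in those of 21.7% of 21103 genes. These UTRs were between 60 bases long, for Zfpm1, and 3030 bases, for Tal1, with a median of 1086 bases over all genes. All but that of Tal1 were shorter than this median, so the shares do not compare UTRs of like length. A match of 8 letters was likewise found in 0 of the 8 and in 5.46% of all genes. Sites of the other strand, miR-214-5p, were not searched.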

How the data were processed

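Gene expression was measured by RNASeq of poly(A) libraries from splenic T cells of 12 mice. According to the study's methods and the submitters' notes, the authors trimmed paired-end reads with Trimmomatic 0.36, mapped them to GRCm38 with STAR 2.5.2b and counted unique exonic reads with featureCounts of Subread 1.5.2, and deposited raw counts per gene without normalization. The strand setting and the annotation release of the counting are not given in the sources used here. Unique counting lowers genes with near-identical copies. Of 49315 identifiers 48970 were matched to symbols of GENCODE, and the 345 others, with 0.0705% of the counts, stayed in the tests. The gene Ahsp of the red-cell list was not analysed here.

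Counts were fitted in edgeR 4.0.16 (R 4.3.3) with filterByExpr, TMM scaling and the quasi-likelihood test, with Benjamini-Hochberg adjustment over all genes tested, in 4 comparisons of 3 against 3 libraries and for the interaction over 12 libraries. Calls needed an adjusted p under 0.05 and, except for the interaction, also an absolute log2 fold change over 1. DESeq2 1.42.0 was an alternative, as were RLE and library size scaling, a minimum of 10 counts per library or no minimum, the adjusted-deviance fit, a replicate block, 1 fit over all groups, the adjusted p alone and leaving out each library. Leaving out both globin-rich libraries together, and either of them for the gene lists, was chosen after the data were seen. The log2 CPM used a prior count of 2. The functions were tested on simulated counts. Figures were drawn with matplotlib.

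The 8 genes and the gene lists were chosen with earlier results of these data known. Named from each list were the called genes with the 3 largest changes in WT, or the 2 most abundant where none was called, and for each member the 3 genes of highest correlation. Ldb1, Jak2, Stat5a, Stat5b, Pim1, Cish, Socs2, Bcl2l1, Gata2, Gata3, Myb, Tek, Cdh5, the globin genes, Alas2 and Car1 were named after their values were seen. So were Cd200r3, Mcpt4, Tpsb2, Cma1, Ccr3, Il5ra, Kdr and the neutrophil genes other than Mmp8, Ltf and Ngp. Of the 8 genes 6 had a promoter in the table of RefSeq. Replicates were separate mice, and 0 of 12 replicate pairs held identical counts.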

Additional observations from a re-analysis of the deposited data

How the results depend on the processing

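The 7 calls in WT were also 7 under each of the 9 alternatives of tool, scaling, filter, model and threshold, and between 2 and 7 when a library was left out. The lower counts came without WT sham replicate 1, with 2 called, and without WT sham replicate 3, with 2. Over all genes the count of calls in WT was 1169 and lay between 564 and 1338 with a library left out, and it was 3009 at the adjusted p alone. In both comparisons between genotypes and in miR-214-/- 0 members were called under every alternative, and DESeq2 called 51, 45 and 21 genes in all in miR-214-/-, in sham and in Ang II, against 0, 3 and 0 in edgeR. For the interaction the count of members was 2 with DESeq2, which called 444 genes, and between 0 and 7 with a library left out. The value of 7 came without miR-214-/- Ang II replicate 1. The cause of these shifts was not tested.

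Signs changed in uncalled results. For Ang II against sham in miR-214-/- the log2 fold changes without miR-214-/- sham replicate 1 were -0.01 for Gata1, -0.33 for Klf1, -0.33 for Tal1, -0.19 for Gfi1b and -0.08 for Epor. Their ranges over all fits with a library left out were -0.67 to 0.59 for Gata1, -1.30 to 0.55 for Klf1, -1.14 to 0.40 for Tal1, -1.41 to 0.62 for Gfi1b, -0.12 to 0.27 for Zfpm1 and -1.19 to 0.86 for Epor, with each lowest value without miR-214-/- Ang II replicate 1. Zfpm1 between the genotypes in sham ranged from -0.12, without WT sham replicate 1, to 0.17, and it was also negative, at -0.05, when miR-214-/- sham replicate 3 was left out. The replicate numbers were not treated as pairs of mice. Deviations of libraries with the same number correlated at 0.20, 0.11 and -0.14 in WT and at -0.56, -0.23 and -0.37 in miR-214-/-. With different numbers they correlated at -0.23 to 0.20 in WT and at -0.27 to 0.48 in miR-214-/-. These values cannot settle pairing, because deviations from a mean of 3 libraries depend on each other. With the replicate number as a block the members called were 7 in WT, of 966 genes in all, and 0 elsewhere, and in miR-214-/- the sign turned for Gata1 (-0.022), Klf1 (-0.47), Tal1 (-0.38), Gfi1b (-0.51) and Epor (-0.38). With the longest transcript as length Lmo2 (10.7 CPM per kb) stood above Klf1 (9.37) in WT sham. Epor had 61 to 174 counts and Gfi1b 56 to 222 counts per library in WT sham, which limits their precision.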
